A study of Mus musculus with 8 samples.

Results

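The enzymes of glycolysis were compared between lymphatic endothelial cells (LEC) and blood vascular endothelial cells (BEC) of the normal mouse colon. The set held 10 genes, and its members were taken as every probe set whose annotation gave exactly 1 gene symbol and that symbol was one of the 10. This found 21 probe sets for 9 genes (Hk1, Hk2, Pfkfb3, Pfkl, Pfkp, Aldoa, Pgk1, Pkm and Ldha), out of 18193 genes named on the array, while no probe set named Eno1 alone. Both cell types came from the colons of the same 4 healthy, untreated C57BL/6J mice aged 8 weeks, 3 female and 1 male, which gave 4 LEC arrays and 4 BEC arrays. Cells were sorted by flow cytometry after staining for CD31, podoplanin and CD45.2, and their amplified total RNA was hybridised to 1 single-colour array per sample. Every colon had first been scraped of mucus and digested with collagenase and DNase, and the mice were selected by the authors for the quality of their RNA. The exact gates were not given in the sources used here.

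Glycolysis turns glucose into pyruvate in the cytosol and yields ATP without oxygen. Endothelial cells are known to take most of their ATP from it, and the activator of phosphofructokinase made by PFKFB3 is known in mice to be needed for vessel sprouting. Several of these enzymes are textbook targets of the hypoxia-inducible factors, whereas lymphatic endothelium is also known for its use of fatty acid oxidation.

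The labels were borne out by the marker genes. Prox1, the transcription factor of lymphatic fate, lay at 10.91 to 11.93 on the log2 scale in LEC and at 3.22 to 4.57 in BEC. Flt1, a receptor of vascular endothelial growth factor, lay at 3.17 to 6.08 in LEC and at 11.26 to 11.98 in BEC. All 8 shared endothelial markers were above the background level on every array, but they summed to 11200 to 17600 in LEC and 21800 to 31700 in BEC on the linear scale, and 1 of the 8, the adhesion molecule Cdh5, was called lower in LEC. Each array's background level was taken from its 27 probe sets for bacterial control transcripts, as their 95th percentile, and ran from 3.83 to 4.88 in LEC and from 3.43 to 4.52 in BEC. LEC replicate 1 stood apart, with a median Spearman correlation of 0.601 with the other LEC arrays (the other 3 had 0.711 to 0.724) and the widest gap between the 3′ and 5′ control probe sets of Gapdh (3.87 log2 units, against 1.14 to 3.62 on the other 7 arrays), though its gap for Actb (-0.29) lay within the range of the other arrays (-0.63 to 0.25). The correlation of BEC arrays with their own group ran from 0.696 to 0.763.

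None of the 9 measured glycolysis genes passed the test between LEC and BEC. In the fit over all 13259 genes that passed the filter on dim values, 0 of 9 were called higher and 0 of 9 lower in LEC (limma, adjusted p under 0.05), where 4.07% of all genes were called (1.76% higher and 2.31% lower). At an unadjusted p under 0.05 there was 1 of 9, Ldha, where 14.4% of all genes had such a p. The LEC minus BEC difference was below 0 for 6 genes and above 0 for 3, with a median of -0.59 (all genes: 0.08, with 46.8% below 0). Without LEC replicate 1 that median was -0.29. The size of the difference ran from 0.03 for Pgk1 to 1.52 for Pfkl, and its standard error from 0.42 for Pkm to 1.45 for Hk2. The LEC and BEC values overlapped for all 9 genes, where they did not overlap for 10.4% of all genes. By probe set 0 of 20 tested were called, where 3.31% of all 28840 tested probe sets were. In bulk samples such as these, fewer cells that express a gene and less RNA of it per cell cannot be told apart.

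**Figure D1:**
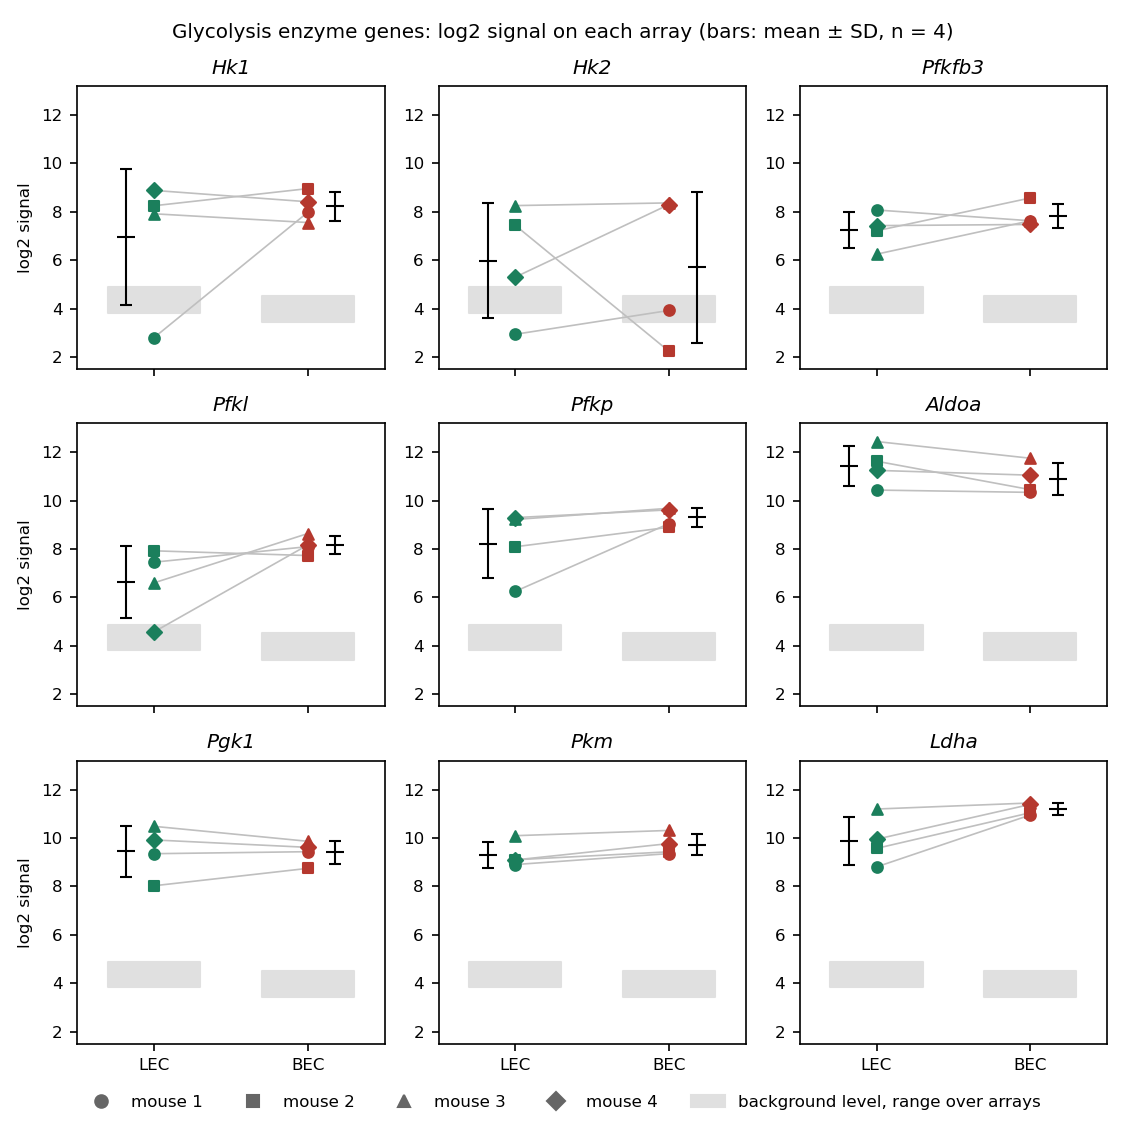
Log2 signal (y axis) of the 9 measured glycolysis genes on each array, LEC left and BEC right, 1 probe set per gene. Grey lines join the arrays of 1 mouse, black bars are the mean ± SD (n = 4), and grey boxes span the background levels of the arrays. The LEC and BEC values overlap for all 9 genes, and Hk1 in LEC of mouse 1 and Hk2 in both cell types of mouse 1 and in BEC of mouse 2 lie below the background of their arrays.

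Hexokinases trap glucose in the cell by phosphorylating it. Hk1, the widely expressed hexokinase, had log2 signals of 2.80, 8.25, 7.92 and 8.88 in LEC of mice 1 to 4 and 7.98, 8.96, 7.56 and 8.41 in BEC. A single array set the difference at this probe set: LEC replicate 1 was below its background, and the other 3 LEC arrays lay within the BEC range. The LEC minus BEC difference was -1.26 ± 1.08 (SE, adjusted p = 0.672), and without LEC replicate 1 it was 0.12 (adjusted p = 0.957). The second probe set of Hk1 repeated the low array, with 2.71, 7.42, 5.90 and 5.48 in LEC and 9.20, 7.38, 6.41 and 6.49 in BEC. There LEC of mice 3 and 4 also lay below the BEC range, and LEC was lower in 3 of 4 mice. The difference at that probe set was -1.99 ± 0.98 (limma over all probe sets, adjusted p = 0.417).

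Hk2, the hexokinase induced by insulin and hypoxia, was the most scattered member, with 2.94, 7.44, 8.26 and 5.30 in LEC and 3.92, 2.23, 8.37 and 8.30 in BEC. It was above background on 3 of 4 LEC arrays and 2 of 4 BEC arrays. LEC was lower in 3 of 4 mice, but both arrays of mouse 1 were below background and mouse 3 differed by only -0.11. Mouse 2 had LEC higher by 5.21, from a BEC value below its background of 3.43, so that size cannot be measured. For Hk2 the difference of 0.28 ± 1.45 (limma, adjusted p = 0.962) had a 95% interval of -2.84 to 3.40, so these arrays allow a large change in either direction. Its sign turned to -0.11 when the arrays were scaled to equal hybridisation controls, and raising values to background gave 0.31.

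The committing step is phosphofructokinase, measured here through its liver-type (Pfkl) and platelet-type (Pfkp) subunits and its activator-making enzyme Pfkfb3. Pfkl had 7.46, 7.93, 6.61 and 4.58 in LEC and 8.10, 7.73, 8.64 and 8.17 in BEC. LEC was lower in 3 of 4 mice, mostly through mouse 4 (by 3.59) and mouse 3 (by 2.04). The difference was -1.52 ± 0.72 (95% interval -3.07 to 0.03, adjusted p = 0.361), and it was -0.83 without LEC replicate 4.

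The 3 probe sets of Pfkl did not behave alike. The one with the second-highest mean was the only one of the 21 member probe sets at which the groups did not overlap, with 5.79, 6.56, 5.72 and 3.18 in LEC and 7.10, 7.16, 8.33 and 7.95 in BEC (9.22% of all tested probe sets did not overlap). Its difference of -2.32 ± 0.79 missed the threshold in the fit over all probe sets (limma, adjusted p = 0.170). The dimmest one had a mean difference of the other sign, 0.74 ± 1.11, with 3.64 to 5.10 in LEC and 0.57 to 5.63 in BEC. There LEC was still lower in 3 of 4 mice, and the 0.57 was BEC replicate 2, below its background of 3.43.

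Pfkp had 6.25, 8.10, 9.23 and 9.30 in LEC and 9.05, 8.90, 9.69 and 9.62 in BEC. LEC was lower in all 4 mice, as it was for 11.1% of all genes, but by 2.80 in mouse 1 and by only 0.32 to 0.81 in the others. The difference was -1.10 ± 0.64 (adjusted p = 0.486), -0.44 without LEC replicate 1 and -0.05 when its probe sets were averaged. A second probe set gave -1.03 ± 0.79. The third was the only 1 of the 21 that did not pass the filter, with 8.24, 6.12, 1.63 and 3.33 in LEC and 2.37, 4.88, 2.69 and 1.48 in BEC. It was above background on 2 of 4 LEC arrays and 1 of 4 BEC arrays, and the average that gave -0.05 included it.

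Pfkfb3 had 8.07, 7.21, 6.25 and 7.43 in LEC and 7.63, 8.57, 7.63 and 7.48 in BEC. The groups overlapped and LEC was lower in 3 of 4 mice, with a difference of -0.59 ± 0.58 (95% interval -1.84 to 0.67, adjusted p = 0.723). Without LEC replicate 3 it was -0.25, and without BEC replicate 2 it was -0.34. Its second probe set was scattered, from 3.93 to 8.90 in LEC and from 2.60 to 8.79 in BEC (-1.07 ± 1.34).

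The enzymes of the middle and the pay-off of the pathway were bright in both cell types. Aldoa, the aldolase that splits the phosphorylated sugar, had 10.44, 11.63, 12.45 and 11.26 in LEC and 10.35, 10.46, 11.76 and 11.06 in BEC. LEC was higher in all 4 mice (as for 14.3% of all genes), by 0.09 to 1.17, and the difference of 0.54 ± 0.43 had an adjusted p of 0.649. It was 0.87 without LEC replicate 1, 0.82 without BEC replicate 3, 0.35 without BEC replicate 1 and 0.21 without LEC replicate 3. The other 4 probe sets gave -0.33 to 0.20, so the sign depends on the probe set. All 5 Aldoa probe sets carry the suffix x, which marks probes that can match other transcripts too, and aldolase has paralogs and processed pseudogenes.

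Pgk1, phosphoglycerate kinase, which makes the first ATP of the pathway, had 9.35, 8.03, 10.48 and 9.92 in LEC and 9.44, 8.75, 9.87 and 9.62 in BEC. The cell types were interleaved, and the difference of 0.03 ± 0.53 (adjusted p = 0.990) had a 95% interval of -1.11 to 1.17. That interval still allows LEC to be up to 2.15-fold lower or 2.25-fold higher. Its sign turned to -0.25 with equal array medians and to -0.36 with equal hybridisation controls, while its other probe sets gave 0.80 ± 0.49 and 0.10 ± 0.41. Pgk1 lies on the X chromosome, and the male mouse (number 4) lay within the range of the females in both cell types.

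Pkm, pyruvate kinase, had the smallest standard error of the 9 when the mouse was left out of the model (with the mouse as a block it was 0.348, against 0.261 for Aldoa), with 8.90, 9.10, 10.10 and 9.10 in LEC and 9.36, 9.43, 10.31 and 9.77 in BEC. LEC was lower in all 4 mice, by 0.22 to 0.68. The difference was -0.42 ± 0.42 without the mouse in the model (limma, 95% interval -1.33 to 0.49, adjusted p = 0.726). It was -0.69 without LEC replicate 3, -0.29 without LEC replicate 1 and -0.22 without BEC replicate 3. With the mouse as a block and all arrays the adjusted p was 0.617. The single probe set does not tell the muscle-type and embryonic-type splice forms apart in these files.

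Ldha, the lactate dehydrogenase subunit that favours making lactate from pyruvate, came nearest to a call. It had 8.81, 9.57, 11.20 and 9.95 in LEC and 10.95, 11.05, 11.45 and 11.39 in BEC. LEC was lower in all 4 mice, by 2.14, 1.47, 0.25 and 1.44, and the groups overlapped through LEC replicate 3 alone. The mean was 2.51-fold lower in LEC (difference -1.33 ± 0.45, unadjusted 95% interval -2.29 to -0.36), with an adjusted p of 0.147 over all genes. One library decided this call: without LEC replicate 3 the difference was -1.77 and the adjusted p 0.0218, whereas over the 17 other alternatives the adjusted p ran from 0.0757 to 0.361. Without both arrays of mouse 3 the difference was -1.68 (adjusted p = 0.0757), and without LEC replicate 1 it was -0.97 (adjusted p = 0.276).

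**Figure D2:**
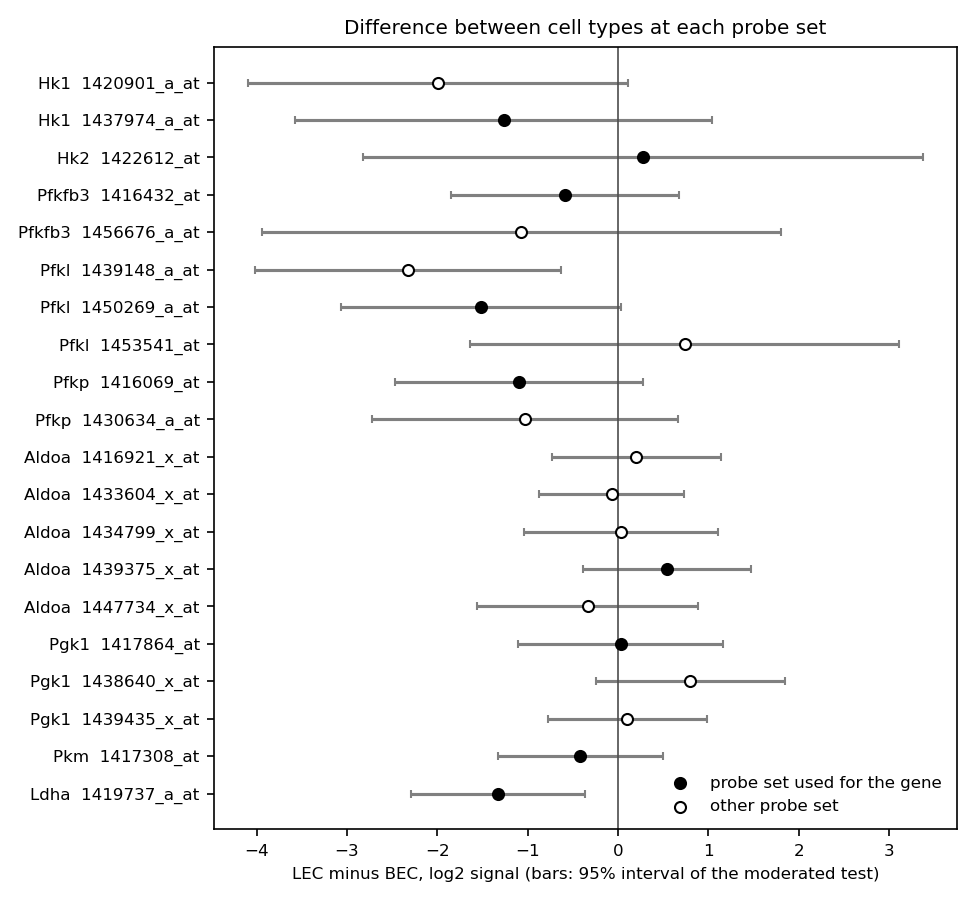
LEC minus BEC difference in log2 signal (x axis) at the 20 member probe sets that passed the filter (y axis), with bars for the 95% interval of the moderated test. Filled points are the probe sets taken for the genes; only the intervals of 1 Pfkl probe set and of Ldha leave out 0, before adjustment over all probe sets.

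Several enzymes shared a pattern by mouse. In mouse 3 the signal was the highest of the 4 mice in both cell types for 5 of 9 members, namely Hk2, Aldoa, Pgk1, Pkm and Ldha, where this held for 7.2% of all genes. For no member was it so in mouse 1, 2 or 4 (14.2%, 5.56% and 6.13% of all genes). Averaged over the cell types, Aldoa had 10.39, 11.05, 12.10 and 11.16 in mice 1 to 4. The highest and lowest of these means lay 1.71 apart for Aldoa, 1.08 for Pkm, 1.79 for Pgk1 and 1.45 for Ldha. The pattern was noticed in the values and was given no test. It held at 9 of the 21 member probe sets, among them 4 of Aldoa and 2 of Pgk1, so these are not separate observations.

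The summed signal of epithelial markers was also highest in mouse 3 in both cell types, though not every marker followed this order. The sum of the linear signals of 12 epithelial markers was 357, 1760, 10500 and 801 in LEC of mice 1 to 4 and 665, 855, 22000 and 5790 in BEC. Epcam, the epithelial adhesion molecule, was at 5.97, 4.43, 10.71 and 4.05 in LEC and at 4.99, 6.48, 11.85 and 11.13 in BEC, and no marker of the list was below background on all 8 arrays. Of the 12, 5 to 11 were above background on LEC arrays and 10 to 12 on BEC arrays. Slc26a3, an ion exchanger of the colon surface, was above background on 0 of 4 LEC arrays and 4 of 4 BEC arrays. Its values were 3.05, 3.33, 3.17 and 2.70 in LEC and 5.17, 6.27, 8.48 and 4.09 in BEC. It was not called (-2.94 ± 0.95, limma, adjusted p = 0.128), and 0 of the 12 were called between LEC and BEC. The part of epithelial RNA in the enzyme values was not tested.

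**Figure D3:**
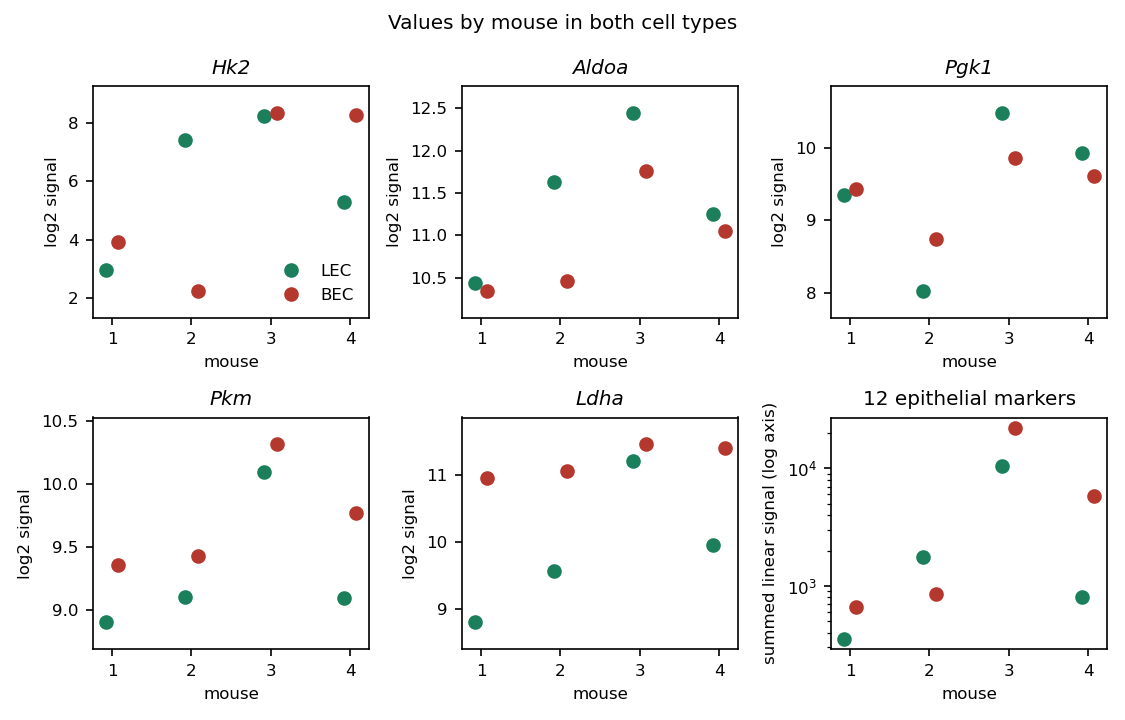
Log2 signal (y axes) of the 5 members that were highest in mouse 3 in both cell types, and the summed linear signal of 12 epithelial markers (log axis), by mouse (x axis). Each point is 1 array, LEC in green left of BEC in red. The gene panels were picked because mouse 3 is the highest of each colour there, and the other members are not drawn. Mouse 3 is also the highest of each colour in the epithelial panel. Mouse 4 comes next in BEC in every panel, closely for Hk2 (8.30 against 8.37) and Ldha (11.39 against 11.45).

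Markers of stromal cells also differed between the cell types. Pericyte and smooth muscle markers summed to 127 to 294 in LEC and 829 to 1520 in BEC, where 1 of 5 tested was called (Rgs5, lower in LEC, -6.07 ± 1.17, adjusted p = 0.00849). Fibroblast markers summed to 420 to 8530 in LEC and 172 to 388 in BEC, where 1 of 6 tested was called (Fbln1, higher in LEC, 3.99 ± 0.88, adjusted p = 0.0194). Leukocyte markers summed to 103 to 727 in LEC and 127 to 463 in BEC, with C1qa below background on all arrays. Of 8 pericyte and smooth muscle markers 2 to 5 were above background on LEC arrays and 4 to 6 on BEC arrays, and of 7 fibroblast markers 3 to 7 and 4 to 6. Their part in the enzyme values was not tested.

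The promoters of the members were also searched for a short motif, and no link to the pattern by mouse was tested. The promoters of all 10 genes were in the RefSeq table (GRCm38.p6), which gave 18 windows of 250 bases before an annotated start. The core of the hypoxia response element was searched as ACGTG and as GCGTG on both strands. Within these windows ACGTG was found for 6 of 10 members (Hk2, Pfkfb3, Aldoa, Pgk1, Pkm and Ldha), where 18.5% of 27025 genes held it. By window it was 8 of 18, or 44.4%, against 16.6% of all 32851 windows. Overlapping windows of a gene can count the same match again, as those of Aldoa do. Either form was found for 10 of 10 members and 41.5% of all genes. The genes with several windows had more chances to match, and a match is a run of letters and no measured binding. Both forms contain CG, and the CG content of the windows was not compared. Pfkfb3 held ACGTG in both of its windows, and its brighter probe set was highest in mouse 1 in LEC and in mouse 2 in BEC. The windows below are of the 5 genes highest in mouse 3, each at the first start whose window held most matches to ACGTG, 5′ to 3′ on the strand of the gene, with matches in capitals. They lie at chr6:82774455-82774704 (Hk2, minus strand), chr7:126799255-126799504 (Aldoa, minus strand), chrX:106186850-106187099 (Pgk1, plus strand), chr9:59656977-59657226 (Pkm, plus strand) and chr7:46845554-46845803 (Ldha, plus strand).
Hk2: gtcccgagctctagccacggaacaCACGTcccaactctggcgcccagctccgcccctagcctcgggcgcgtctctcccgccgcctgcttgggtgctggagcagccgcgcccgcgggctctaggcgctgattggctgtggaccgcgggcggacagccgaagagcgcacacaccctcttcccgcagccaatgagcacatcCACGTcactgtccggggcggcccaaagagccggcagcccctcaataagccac
Aldoa: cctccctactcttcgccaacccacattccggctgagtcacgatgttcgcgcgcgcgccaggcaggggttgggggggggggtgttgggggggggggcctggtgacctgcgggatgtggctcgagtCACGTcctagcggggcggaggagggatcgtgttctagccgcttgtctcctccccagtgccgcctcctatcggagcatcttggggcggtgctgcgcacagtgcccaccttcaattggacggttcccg
Pgk1: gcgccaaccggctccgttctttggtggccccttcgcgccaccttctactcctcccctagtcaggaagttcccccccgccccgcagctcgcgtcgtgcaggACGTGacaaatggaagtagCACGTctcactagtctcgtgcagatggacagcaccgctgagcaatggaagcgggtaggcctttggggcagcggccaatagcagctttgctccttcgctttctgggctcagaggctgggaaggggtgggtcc
Pkm: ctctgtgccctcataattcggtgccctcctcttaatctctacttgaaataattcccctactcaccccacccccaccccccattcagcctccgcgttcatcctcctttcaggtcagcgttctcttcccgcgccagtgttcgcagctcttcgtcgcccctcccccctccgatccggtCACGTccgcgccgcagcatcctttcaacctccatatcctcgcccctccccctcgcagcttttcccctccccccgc
Ldha: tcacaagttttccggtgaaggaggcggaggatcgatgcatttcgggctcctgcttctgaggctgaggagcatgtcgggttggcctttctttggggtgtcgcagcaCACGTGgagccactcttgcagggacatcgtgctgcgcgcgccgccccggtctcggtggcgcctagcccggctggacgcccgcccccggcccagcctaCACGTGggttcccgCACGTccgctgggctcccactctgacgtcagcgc
The Ldha window held the most, with 5 matches at 3 places, because CACGTG reads as ACGTG on both strands and occurs there at 2 of them. The Hk2 and Pgk1 windows held 2 places each, and the Aldoa and Pkm windows 1 each.

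The balance between isozymes was compared within arrays for 3 pairs. The change from BEC to LEC was 1.54 log2 units more positive for Hk2 than for Hk1 (exact permutation test over the 8 arrays, two-sided, p = 0.514, adjusted p = 0.714 over the 3 pairs). Leaving out BEC replicate 2 gave 0.14, leaving out BEC replicate 3 gave 2.65, and raising values to background gave 1.06. For Pfkp over Pfkl it was 0.42 (exact p = 0.714, adjusted p = 0.714), but 1.35 without LEC replicate 1 and -0.63 without LEC replicate 4. For Ldha over Ldhb, the subunit that favours the return of lactate to pyruvate, it was -0.95 (exact p = 0.371, adjusted p = 0.714) and turned to 0.85 when all probe sets of a gene were averaged. This balance was lower in LEC in all 4 mice, yet it was only -0.22 without LEC replicate 1. The paired exact sign-flip test over the 4 mice gave p = 0.125, the smallest that test allows. With 4 arrays against 4 the smallest possible p was 0.0286.

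Genes around the pathway mostly missed the threshold too. Of 96 entries in 6 lists of glucose metabolism and its regulators, 88 had a named probe set and 73 were tested, of which 0 were higher and 1 lower in LEC (4.07% of all genes were called). With the mouse as a block 2 were lower, Epas1 and Pdk4. The one called without the block was Epas1, the alpha subunit of a hypoxia-inducible factor prominent in endothelium. It had 11.54, 11.29, 11.10 and 11.73 in LEC and 13.24, 12.75, 12.65 and 12.67 in BEC, with no overlap (10.4% of all genes did not overlap). The 2.66-fold lower level in LEC (-1.41 ± 0.24, adjusted p = 0.00326) was called under all alternatives but the fit without an intensity trend (adjusted p = 0.198). Hif1a and the other 14 genes of that list were not called, and its median difference was -0.54 (all genes: 0.08), or -0.14 without LEC replicate 1.

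Among the other isozymes and steps of glycolysis 0 of 13 were called, with a median of -0.15. Bpgm, which makes bisphosphoglycerate, had the largest difference, at 5.84 to 8.78 in LEC and 8.95 to 9.78 in BEC (-1.88 ± 0.64, limma, adjusted p = 0.150), with no overlap (10.4% of all genes did not overlap). Without LEC replicate 1 it was -1.34, and Hk3, another hexokinase, had the largest difference (2.29). Hk3 was above background on only 2 of 4 LEC arrays and 0 of 4 BEC arrays. The transport list had 0 of 10 called and a median of 0.11. Its member with the largest difference was Slc16a1, a transporter of lactate and pyruvate, with 4.26, 2.77, 9.57 and 6.61 in LEC and 8.32, 8.80, 9.77 and 9.36 in BEC (-3.26 ± 1.14, adjusted p = 0.167). It too was highest in mouse 3 in both cell types, and it was called without LEC replicate 3 (-4.51, adjusted p = 0.00983) and without both arrays of mouse 3 (-4.28, adjusted p = 0.0378). Slc16a1 was above background on only 2 of 4 LEC arrays. Raising values to background gave -2.72 (limma, adjusted p = 0.0757), and averaging its probe sets gave -1.71 (adjusted p = 0.386).

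Genes of pyruvate entry into mitochondria had 0 of 12 called but a median of -1.10, with 11 of 12 below 0. Without LEC replicate 1 the median was -0.71, again with 11 of 12 below 0. Pdk4, a kinase that switches off pyruvate dehydrogenase, had the largest difference, with 0.05, 0.89, 5.77 and -1.23 in LEC and 5.28, 4.97, 7.67 and 5.64 in BEC (-4.52 ± 1.36, adjusted p = 0.0952), below background on 3 of 4 LEC arrays. It was called with the mouse as a block (adjusted p = 0.0431) and without LEC replicate 3 (adjusted p = 0.00806), and it was -1.14 with values raised to background (adjusted p = 0.480). The pentose phosphate and hexosamine list had 0 of 11 called (median -0.50) and was led in size by Gfpt1, the entry enzyme of the hexosamine branch (-2.36 ± 1.57, adjusted p = 0.557). The lead of Gfpt1 rested on LEC replicate 1, which was below background there: without it Gfpt1 was -0.44 and Pgls, of the pentose phosphate branch, had the largest difference (-1.67). Averaging its probe sets turned Gfpt1 to 0.39. The gluconeogenesis and glycogen list had 0 of 11 called (median -0.54) and was led by Pck2, the mitochondrial phosphoenolpyruvate carboxykinase (-2.66 ± 0.86, adjusted p = 0.126). Pck2 was above background on only 2 of 4 LEC arrays, and its groups did not overlap (10.4% of all genes did not overlap). Raising values to background gave -1.77 (limma, adjusted p = 0.197), and averaging its probe sets gave -3.70 (adjusted p = 0.0149). Over all 73 genes 49 lay below 0, where 46.8% of all genes did.

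**Figure D4:**
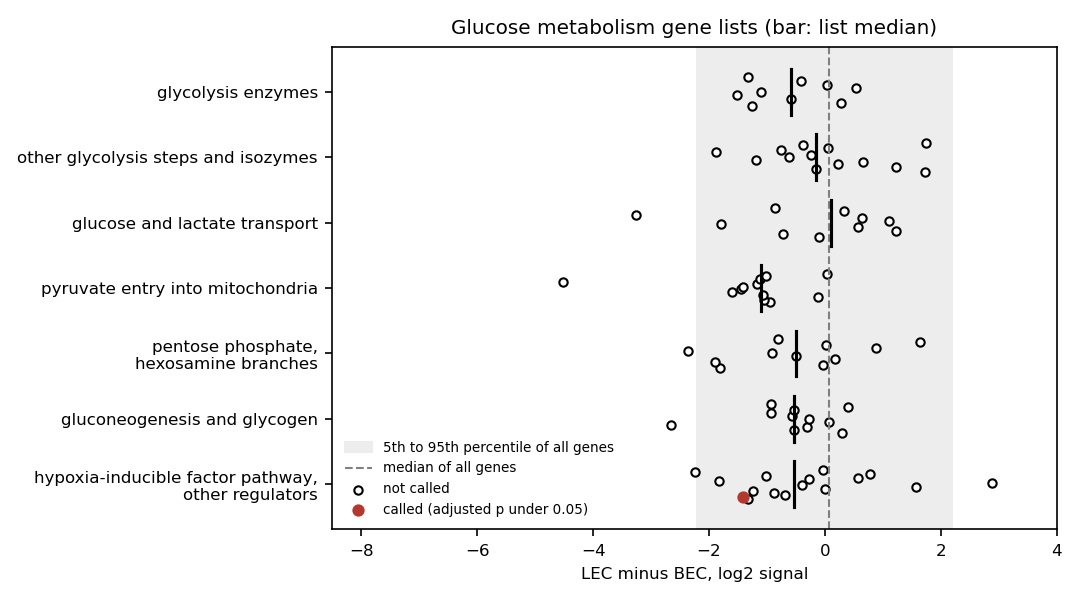
LEC minus BEC difference in log2 signal (x axis) of each tested gene of the glycolysis set and of 6 lists around it (y axis), with the list median as a bar, against the median and the 5th to 95th percentile of all 13259 genes. Epas1 is the only point called; the medians lie between -1.10 and 0.11.

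The profiles most like those of Pfkl and Ldha, the members with the largest differences, were looked up over the 8 arrays as the root mean square difference of centred log2 values. For Ldha they were Glul (0.293), Atp5j (0.301) and Nrbp1 (0.329), where the median over 13258 genes was 1.46. For Pfkl they were Nlk (0.392), Pxt1 (0.421) and Acaca (0.467), with a median of 1.63. None of the 6 was called between LEC and BEC (adjusted p from 0.153 to 0.672).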

How the data were processed

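The authors deposited 1 table of log2 values with a column per array. MAS5 is named in the submitters' processing notes, with no version or settings given in the sources used here. All 8 arrays have a linear trimmed mean (2% off each end) of 100.005, so each array was scaled to a common level and not quantile normalized. RNA was amplified from the poly(A) end and from random sites before labelling, per the labels' protocols. Of 45101 probe sets, 64 were controls, 34945 had 1 gene in the 2016 platform annotation, 932 several and 9160 none, and 34741 symbols were updated through the gene number to RefSeq GRCm38.p6.

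Where a gene had several probe sets, the brightest by mean stood for it. A gene was kept if at least 4 arrays had it above their own 40th percentile, which left 13259. The model (limma 3.58.1, R 4.3.3) had cell type as its only term and eBayes with an intensity trend, and p-values were adjusted by Benjamini-Hochberg over all genes. The same fit on 28840 probe sets tested each probe set. Differences are LEC minus BEC in log2 units with their moderated standard error. The method was tested on simulated data. Members, lists and named genes (all members, called list genes or the largest difference of a list) were chosen with earlier results of these data known. LEC and BEC came from the same animals per the series design, so the replicate number is the mouse; same-mouse deviations correlated at 0.142, 0.0776, 0.181 and 0.0510 over all genes in mice 1 to 4, and the highest correlation with another mouse was 0.0295, 0.0295, 0.0747 and 0.0747, so mouse 4 matched another mouse better than itself. Array numbers limit the precision.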

Additional observations from a re-analysis of the deposited data

Results flagged for a closer look

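A sample far from the other 3 of its group was seen in 4 of the 42 groups formed by 21 member probe sets and 2 cell types, and chance gives about 1 in 20. Hk1, at its brighter probe set, was at 2.80 in LEC replicate 1, against 7.92 to 8.88 on the other LEC arrays, and the other probe set of Hk1 was low on the same array. Aldoa, at its dimmest probe set, was at 9.42 in LEC replicate 1, against 7.71 to 7.91. Pkm was at 10.10 in LEC replicate 3, against 8.90 to 9.10, on the array with the highest epithelial marker sum among LEC. Pfkfb3, at its brighter probe set, was at 8.57 in BEC replicate 2, against 7.48 to 7.63. The cause was not tested for any of them.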

How the results depend on the processing

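The results were recomputed under 18 alternatives, of which leaving out mouse 3 was chosen after seeing the data. Of 162 member differences 149 kept their direction and their side of the threshold and 12 changed sign. The other 1 was the call of Ldha without LEC replicate 3. The mouse block, the changed filters and the fit without an intensity trend leave each difference as it was, so there the direction could not change. Leaving out single arrays gave -1.90 to 0.12 for Hk1, -0.88 to 1.29 for Hk2, -0.32 to 0.50 for Pgk1, 0.21 to 0.87 for Aldoa, -0.86 to -0.25 for Pfkfb3, -0.69 to -0.22 for Pkm and -1.77 to -0.97 for Ldha, with 0 to 1 members and 0 to 1 member probe sets called lower in LEC. It gave 156 to 227 genes higher in LEC and from 180 (without BEC replicate 2; 200 without BEC replicate 4) to 329 lower, against 234 and 306 with all arrays, and -0.63 to 1.35 for Pfkp over Pfkl, 0.14 to 2.65 for Hk2 over Hk1 and -1.41 to -0.22 for Ldha over Ldhb. With equal hybridisation controls Hk2 was -0.11, Pgk1 -0.36 and the genes higher 123 (280 lower). With equal array medians Pgk1 was -0.25 and the split 162 higher and 336 lower. These scalings moved the median of all genes from 0.08 to -0.31 and -0.20. Without mouse 3 Pgk1 was -0.17 and Ldha over Ldhb -1.13. With all arrays kept and the probe sets of each gene averaged, Ldha over Ldhb was 0.85. With the mouse as a replicate block 0 members were called, Ldha had an adjusted p of 0.0792, and 236 genes were higher and 298 lower; the paired exact sign-flip p of Ldha over Ldhb was 0.125, the smallest possible. The pathway genes called lower numbered 0 without an intensity trend, 2 with the block (Epas1, Pdk4), with a stricter filter (Epas1, Klf2) and without mouse 3 (Epas1, Slc16a1), and 3 with averaged probe sets (Epas1, Klf2, Pck2) and without LEC replicate 3 (Epas1, Pdk4, Slc16a1). The causes were not tested. Values near background (Hk2, one array of Hk1) limit what can be measured.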

Other observations

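Regulators chosen after their values were seen included Klf2, a flow-induced transcription factor, which had 7.18, 6.94, 7.57 and 7.51 in LEC and 9.06, 8.43, 9.37 and 9.65 in BEC, with no overlap (10.4% of all genes did not overlap), and missed the threshold except under a stricter filter and with averaged probe sets (-1.83 ± 0.49, adjusted p = 0.056). Myc, a growth regulator, had 9.59, 6.36, 7.40 and 6.80 in LEC and 3.58, 3.76, 4.94 and 6.30 in BEC (2.89 ± 0.87, adjusted p = 0.0949). Gapdh, the glycolysis enzyme often used as a loading control, was read from its control probe sets. The 3′ one was at 11.11, 11.26, 12.27 and 11.40 in LEC and 12.76, 11.33, 12.36 and 11.82 in BEC. There mouse 3 was highest in LEC and mouse 1 in BEC. At the middle one mouse 3 was highest in LEC (9.71) and in BEC (10.33). At the 5′ one mouse 4 was highest in LEC (10.27) and mouse 1 in BEC (10.08).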
